A study of Arabidopsis thaliana with 71 samples.

Results

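The 4 vegetative YABBY genes of Arabidopsis thaliana are FILAMENTOUS FLOWER (FIL, AT2G45190), YABBY2 (YAB2, AT1G08465), YABBY3 (YAB3, AT4G00180) and YABBY5 (YAB5, AT2G26580). They were taken by locus identifier from the 22332 genes of the series' expression table. All 4 passed the filter on low values and were among the 19406 genes tested. Expression was measured by RNA sequencing of poly(A)-primed cDNA in 71 libraries of whole Columbia seedlings, from 4 transgenic lines and wild type (WT) at 4 times. The libraries were made to follow transcripts after a transcription factor is let into the nucleus.

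The lines are named for the factor they carry: KANADI1 in GR-KAN1, Revoluta in GR-REV, Shoot meristemless in GR-STM and Asymmetric leaves 2 in GR-AS2. Each factor is fused to a steroid-binding domain of the glucocorticoid receptor (GR), and such a fusion stays outside the nucleus until dexamethasone is given. WT seedlings carry no fusion and were given the same hormone. Seeds were stratified for 2 days, and 50 seeds per flask were grown in 50 ml of liquid MS medium for 7 days. Dexamethasone was then added to 50 µM in every line, and seedlings were frozen at 0, 30, 60 and 120 min. Each GR line had 3 libraries per time, except GR-REV at 30 min with 2, and WT had 6. No mock-treated group is labelled, so WT at the same time stands as the control for hormone, handling and clock time. The promoter that drives each fusion and the number of independent transformants per line are not given in the labels, and the KAN1 fusion is written in both orders (GR-KANADI1 and KANADI1-GR). Replicates are stated to be biological in the design text of the series.

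YABBY proteins are plant transcription factors with a zinc finger and an HMG-like YABBY domain. The vegetative members are known for expression on the lower (abaxial) side of young leaves and cotyledons, where they promote outgrowth of the blade and restrain meristem genes of the KNOX class together with corepressors of the LEUNIG family. FIL and YAB3 are described as acting redundantly, with YAB2 and YAB5 adding to them. Upper-side factors such as REV, an HD-ZIP III protein, and AS2, a LOB-domain protein, stand opposite to lower-side factors such as KAN1, a GARP protein, while STM, a KNOX homeodomain protein, keeps the shoot meristem undifferentiated.

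The genes lie apart in the TAIR10.1 assembly, whose coordinates are used here because the expression table has none. FIL occupies chr2:18628252-18630779 on the minus strand, with 7 exons and a protein of 229 amino acids. YAB2 occupies chr1:2675813-2679824 on the plus strand, with 6 exons and a protein of 184 amino acids. YAB3 occupies chr4:72545-75576 on the minus strand, with 7 exons and a protein of 240 amino acids. YAB5 occupies chr2:11303455-11307010 on the minus strand, with 7 exons and a protein of 164 amino acids. No other annotated gene overlaps any of them, and no pair of their longest transcripts shares an exact run of 25 nucleotides. A read of that length or more that matches those transcripts exactly therefore belongs to 1 member. Their shorter annotated transcripts were not compared.

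The longest coding runs that FIL shares with YAB3, its described partner, and with YAB5 are shown to give the scale of identity between the transcripts.
FIL and YAB3, 17 nucleotides: GAGGAGATCCAACGTAT
FIL and YAB5, 19 nucleotides: CTGCTGCCAAGAATTGGGC
Both runs are shorter than 25 nucleotides. The 250 bases before the annotated start of each of the 3 members that passed a test below are shown next, 5′ to 3′ on the strand of the gene, since each was lower in 2 of the lines. Capitals mark matches on either strand to GNATAA or GNATAT, the motif described for KAN1, with N any base.
YAB3, chr4:75577-75826, minus strand: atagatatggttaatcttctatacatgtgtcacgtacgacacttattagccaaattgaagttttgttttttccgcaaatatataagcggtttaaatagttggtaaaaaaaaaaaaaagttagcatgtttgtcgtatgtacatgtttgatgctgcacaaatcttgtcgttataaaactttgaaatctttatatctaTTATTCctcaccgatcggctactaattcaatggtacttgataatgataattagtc
FIL, chr2:18630780-18631029, minus strand: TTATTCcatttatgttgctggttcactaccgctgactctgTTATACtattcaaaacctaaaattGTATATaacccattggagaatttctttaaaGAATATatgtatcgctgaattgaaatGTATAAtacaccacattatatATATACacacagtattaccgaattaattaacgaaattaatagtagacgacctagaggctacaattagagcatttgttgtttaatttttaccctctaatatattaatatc
YAB2, chr1:2675563-2675812, plus strand: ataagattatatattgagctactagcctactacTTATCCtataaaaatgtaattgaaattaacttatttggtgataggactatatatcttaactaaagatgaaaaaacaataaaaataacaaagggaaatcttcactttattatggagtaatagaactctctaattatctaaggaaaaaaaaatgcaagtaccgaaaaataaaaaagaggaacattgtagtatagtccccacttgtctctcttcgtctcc
FIL held 6 such matches, YAB3 1 and YAB2 1, and YAB5, whose stretch is not shown, held 0. A base run can match only 1 of the pair of motifs on a strand, and 76% of 27443 protein-coding genes held at least 1 match in a window of 250 bases. Within 1000 bases the matches were 15 in FIL, 5 in YAB2, 7 in YAB3 and 9 in YAB5, where 99.1% of genes held at least 1. The motifs of HD-ZIP III proteins (ATNATTAC), KNOX proteins (TGACAG) and LOB-domain proteins (GCGGCG) had 0 matches in any of the 4 genes in either window. In 250 bases 7.96%, 5.86% and 1.56% of all genes held them, and in 1000 bases 25.7%, 22% and 7.31%. A match or its lack is a description of letters in these windows only. All 3 shown stretches were rich in A and T, with 175 such bases of 250 in YAB3, 179 in FIL and 180 in YAB2, against 177 in YAB5.

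FPKM count fragments per length of transcript and per size of library, so that levels of different genes can be set side by side. Read depth is unknown, and the replicates alone give the precision. Library medians over genes ran from 4.25 to 4.92 FPKM, and 332 to 1136 genes per library were listed at 0, none of them a YABBY gene. The fusion transcript was present in each line: AS2 averaged 199.5 ± 83.3 FPKM in GR-AS2 (SD, n = 12), STM 137 ± 78.2 in GR-STM (n = 12), REV 97.4 ± 40.9 in GR-REV (n = 11) and KAN1 214 ± 109 in GR-KAN1 (n = 12), against WT means between 2.51 and 3.99 FPKM (n = 24). The first axis of the residual variation held 15.1% of the variance, and 5 libraries stood furthest out on it. They were replicate 3 of GR-KAN1 and of GR-REV at 0 min, replicate 2 of GR-STM at 0 min, and in GR-AS2 replicate 1 at 0 min and replicate 3 at 60 min. By their library codes, WT replicates 4 to 6 belong to the later code series Ot86 and OtA0 and every other library to code series Ot79. Later refers here to the order of the codes only. What a code series stands for is not stated in the labels.

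In WT, FIL had the highest level of the 4 genes and YAB2 the lowest. Over the 24 WT libraries FIL ran from 10.3 to 25.9 FPKM with a median of 16.3. YAB3 ran from 7.42 to 16.2 FPKM with a median of 12.2. YAB5 ran from 6.83 to 15.2 FPKM with a median of 11.7, and YAB2 from 5.62 to 12.1 FPKM with a median of 7.67. The WT means were 16.4 ± 3.10 for FIL, 11.85 ± 2.41 for YAB3, 11.8 ± 1.99 for YAB5 and 7.93 ± 1.40 for YAB2 (SD, n = 24), so YAB3 and YAB5 differed by less than their spread. Averaged over all libraries, FIL lay above 70% of the tested genes, YAB5 above 64.9%, YAB3 above 63.1% and YAB2 above 53.5%. These are middle levels in a whole seedling.

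**Figure D1:**
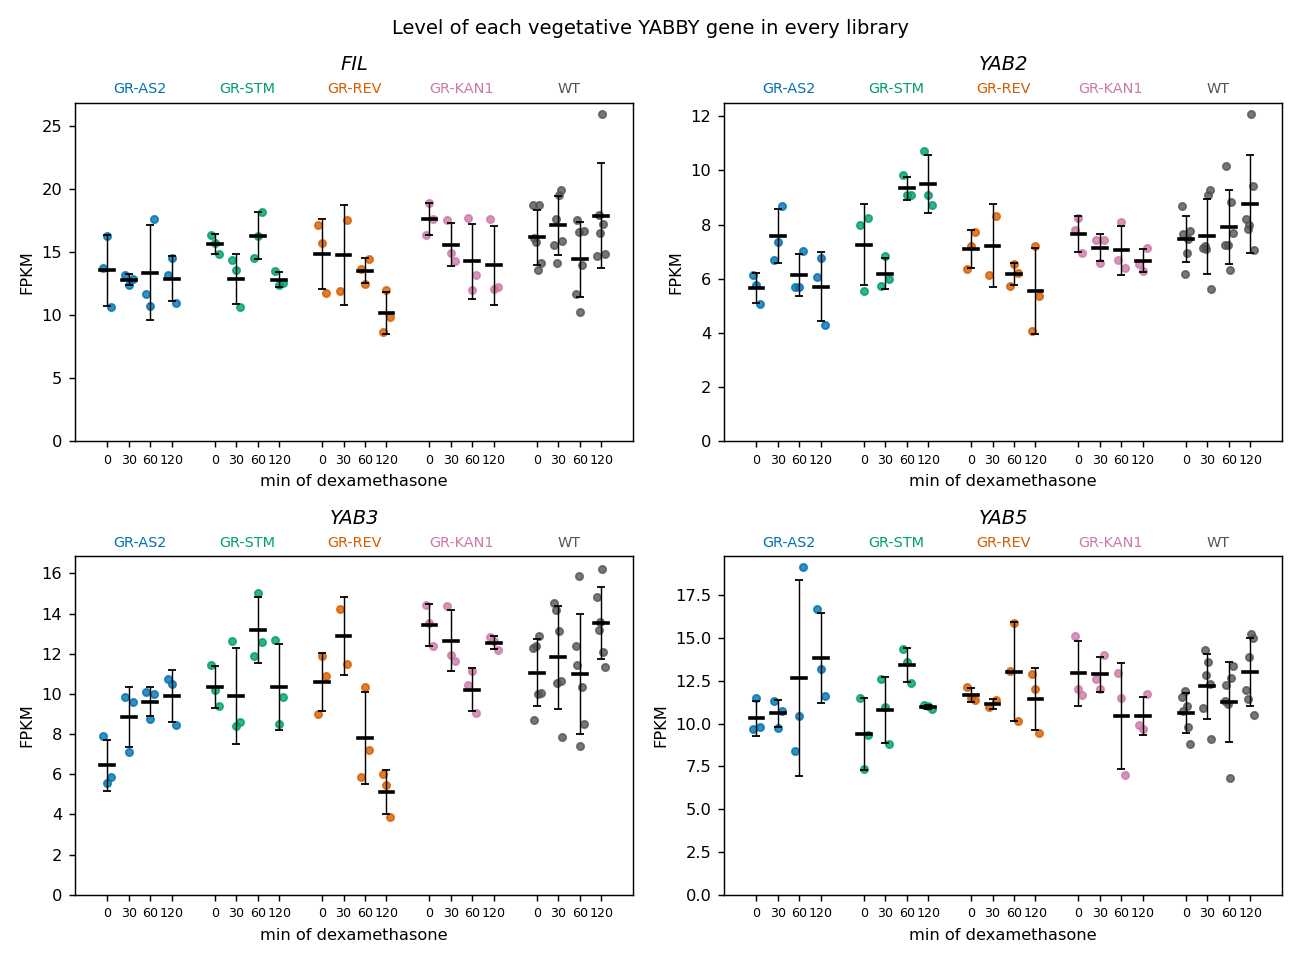
FPKM of each gene (vertical axis) in every library (points), by line and by min of dexamethasone (horizontal axis), with the mean (bar) and SD (whisker). YAB3 sits at 3.89 to 5.99 FPKM in GR-REV at 120 min and at 5.57 to 7.91 FPKM in GR-AS2 at 0 min, below every WT library at those times.

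None of the 4 genes passed the test in WT after the hormone. Log2 changes from 0 min, on the log2(FPKM + 0.5) scale used throughout, lay between -0.17 and 0.13 over the 4 genes and 3 later times, with standard errors (SE) of 0.113 to 0.169 and adjusted p-values of at least 0.869 (limma, Benjamini-Hochberg over all tested genes). YAB3 averaged 11.1 ± 1.68, 11.8 ± 2.58, 10.995 ± 3.00 and 13.5 ± 1.78 FPKM at 0, 30, 60 and 120 min (SD, n = 6 each). FIL averaged 16.1 ± 2.19, 17.1 ± 2.32, 14.4 ± 2.98 and 17.8 ± 4.17 FPKM at the same times. These raw means are not adjusted for code series, and OtA0 libraries occur only at 30 and 120 min. With code series in the model, the FIL changes were -0.04, -0.17 and -0.06 at 30, 60 and 120 min. Of all tested genes 0.0567%, 0.0258% and 0.067% were called in WT at 30, 60 and 120 min, so few genes of any kind passed this test.

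YAB3 was lower in GR-AS2 and in GR-REV than in WT when the 4 times were averaged. FIL and YAB2 were also lower in both lines, and YAB5 did not pass the test in any line. In GR-AS2 YAB3 averaged 8.70 ± 1.76 FPKM (n = 12) and in GR-REV 8.75 ± 3.28 (n = 11), against 11.85 ± 2.41 in WT (n = 24). The modelled log2 difference was -0.55 in GR-AS2 (SE 0.0936, adjusted p = 7.51e-05) and -0.55 in GR-REV (SE 0.0964, adjusted p = 1.49e-05), or 0.685 and 0.683 times WT. This average pools the level at 0 min with the later times. At 0 min alone the YAB3 difference was -0.92 in GR-AS2 and -0.24 in GR-REV (adjusted p = 0.00127 and 0.45, limma). Only the first was called. All tests are two-sided limma tests, called at an adjusted p under 0.05.

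FIL, which acts in both leaves and flowers, averaged 13.1 ± 2.17 FPKM in GR-AS2 and 13.2 ± 2.83 in GR-REV, against 16.4 ± 3.10 in WT. Its log2 difference was -0.29 in GR-AS2 (SE 0.0928, adjusted p = 0.0251) and -0.28 in GR-REV (SE 0.0957, adjusted p = 0.0262). YAB2 averaged 6.27 ± 1.14 FPKM in GR-AS2 and 6.44 ± 1.17 in GR-REV, against 7.93 ± 1.40 in WT. Its log2 difference was -0.29 in GR-AS2 (SE 0.08, adjusted p = 0.00898) and -0.24 in GR-REV (SE 0.0825, adjusted p = 0.0271). The ranges of single libraries overlapped between lines for both genes. FIL spanned 10.6 to 17.6 FPKM in GR-AS2 and 8.60 to 17.6 in GR-REV, against 10.3 to 25.9 in WT.

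Over the times, 3 of 4 members were called lower in GR-AS2 and 3 of 4 in GR-REV, and 0 of 4 in GR-STM and in GR-KAN1. In those comparisons 17.6% of all tested genes were called in GR-AS2, 22.7% in GR-REV, 4.08% in GR-STM and 11.6% in GR-KAN1, in either direction. The members' median log2 difference was -0.29 in GR-AS2 against 0.02 over all tested genes, and -0.26 in GR-REV against -0.00478. In GR-STM the members' differences ran from -0.23 to 0.04, and in GR-KAN1 from -0.10 to -0.06. The lowest adjusted p among the uncalled members was 0.221, for YAB3 in GR-STM, with a 95% interval of -0.41 to -0.04 for its log2 difference. All 4 lines were set against the same WT libraries, here and in the comparisons at 0 min and beyond WT. Within code series Ot79, which alone links the lines to WT over the 4 times in this model, the 6 called differences had the same size and stayed called, with adjusted p-values up to 0.0273. Without the 5 libraries furthest out on the residual axis, the differences ran from -0.59 for YAB3 in GR-AS2 to -0.24 for FIL in GR-REV, and that last call was lost (adjusted p = 0.054). Single libraries decided some of these calls. In GR-AS2 33 of 36 fits without 1 library kept FIL (adjusted p up to 0.0697), and 2 of 4 members were called in the other 3. In GR-REV 31 of 35 such fits kept FIL (adjusted p up to 0.14) and 30 of 35 kept YAB2 (up to 0.129).

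**Figure D2:**
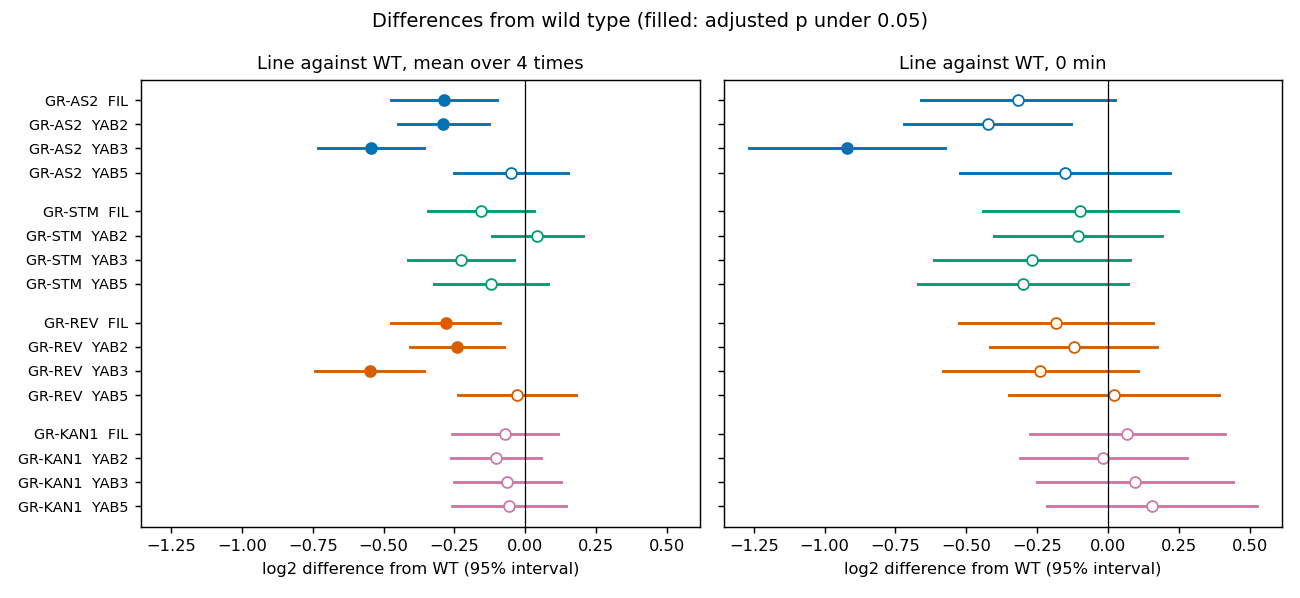
Log2 difference of each line from WT (horizontal axis, with 95% interval) for each gene and line (rows), averaged over the 4 times (left) and at 0 min (right), with filled points at an adjusted p under 0.05. YAB3 lies at -0.55 in both GR-AS2 and GR-REV over the times. At 0 min it lies at -0.92 in GR-AS2 and at -0.24, not filled, in GR-REV.

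Before the hormone had acted, YAB3 was already lower in GR-AS2, and this was the only call for a YABBY gene at 0 min. YAB3 had 7.91, 5.57 and 5.85 FPKM in the 3 GR-AS2 libraries, against a lowest value of 8.72, a median of 11.2 and a highest of 12.9 FPKM in the 6 WT libraries. The groups did not overlap. The log2 difference was -0.92 (SE 0.172, adjusted p = 0.00127, limma). YAB2 had 6.14, 5.78 and 5.05 FPKM in GR-AS2, against 6.17, 7.56 and 8.70 FPKM as lowest, median and highest in WT. These groups did not overlap either, and the difference of -0.42 (SE 0.147) was not called, at an adjusted p of 0.0536 (limma). The share of all tested genes whose groups did not overlap was not counted, here or in the comparisons below. In GR-AS2 at 0 min 5271 of 19406 tested genes had an unadjusted p under 0.05 (limma). FIL had 13.7, 16.2 and 10.6 FPKM in GR-AS2, against 13.5, 15.9 and 18.7 FPKM as lowest, median and highest in WT, and the groups overlapped.

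At 0 min 1 of 4 members was called in GR-AS2, where 10.3% of all tested genes were called, and 0 of 4 in GR-REV (7.81% of genes), GR-STM (0.33%) and GR-KAN1 (0.742%). The number of genes called in GR-AS2 at 0 min was 2000, but 25 when its replicate 3 was left out and 3279 when its replicate 1 was. The members' median log2 difference in GR-AS2 was -0.37, against 0.00342 over all tested genes. Uncalled members of all lines ran from -0.42 to 0.16. The summed level of the 4 genes was 39.1, 37.4 and 31.3 FPKM in GR-AS2 in descending order, against 40.7 to 51.2 FPKM in WT. YAB3 stayed called in each fit without 1 library (adjusted p up to 0.0463) and within series Ot79 (-0.74, adjusted p = 0.0311), as well as without the 5 libraries furthest out (-1.07, adjusted p = 5.19e-04), but not when GR-AS2 and WT at 0 min were fitted alone (-0.74, adjusted p = 0.112), where 114 genes were called against 2000.

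Whole seedlings were measured, so fewer cells that express a YABBY gene and less of its RNA per cell cannot be told apart. Of 6 leaf and cotyledon markers 1 was lower in GR-AS2 over the times, LHCB2.1, a chlorophyll-binding protein of the light-harvesting complex (-1.10, adjusted p = 0.00224). That share lies near the 17.6% of all tested genes called in the comparison. The median of the 6 markers was -0.53. Of 6 root markers tested, 1 was higher over the times, EXPA7, a root-hair expansin (0.57, adjusted p = 0.0416), again a share near 17.6%. At 0 min EXPA7 (1.21, adjusted p = 0.0295) and PYK10, a root beta-glucosidase (2.02, adjusted p = 0.0252), were higher, 2 of 6, while the list's median was 0.07. Of all tested genes 10.3% were called at that time. Among the 4 uncalled root markers, PIN2 averaged 2.64 FPKM in GR-AS2 against 3.62 in WT, WOX5 0.254 against 0.712, RHD6 0.659 against 0.769 and COBL9 1.73 against 1.43. The summed root markers ran from 2548 to 16117 FPKM in GR-AS2, against 748.6 to 5040 in WT, and nearly all of the sum was PYK10, with 2534 to 16094 FPKM in GR-AS2 against 734.6 to 5024 in WT. The summed leaf and cotyledon markers at 0 min ran from 12119 to 65523 FPKM in GR-AS2, with RBCS1A listed at 0 in every library (which can be a failed estimate), against 14149 to 101157 in WT. In WT at 0 min RBCS1A ran from 0 to 58976 FPKM, and it was at 0 in every GR-STM and GR-KAN1 library too. The leaf sums of GR-AS2 and WT are therefore not alike. The shoot apex marker tested, CLV1, a receptor kinase of the meristem, was lower in GR-AS2 over the times (-0.43, adjusted p = 0.00817), with 3 apex markers summing to 3.69 to 6.27 FPKM at 0 min against 3.38 to 8.53 in WT. The part of organ make-up in the lower YABBY levels of GR-AS2 was not tested. In GR-REV 0 of 6 leaf markers were called over the times, and their median was -0.03. Among the root markers COBL9 was lower (-0.42) and WOX5 higher (0.44), 2 of 6, where 22.7% of all tested genes were called.

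After dexamethasone, YAB3 fell in GR-REV beyond what WT did, which was the 1 call among 48 tests of a member beyond WT. At 120 min YAB3 had 5.99, 5.44 and 3.89 FPKM in GR-REV, against 11.4, 13.4 and 16.2 FPKM as lowest, median and highest in WT. The highest GR-REV library lay below the lowest WT library. At 0 min the GR-REV libraries had 9.02, 11.9 and 10.9 FPKM, inside the WT range of 8.72 to 12.9. The change from 0 min in GR-REV minus that in WT was -1.13 on the log2 scale (SE 0.245, adjusted p = 0.00742, limma), or 0.457 times.

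The times between did not pass the test for YAB3. At 30 min GR-REV had 14.2 and 11.5 FPKM, against 7.87 to 14.5 in WT, with a change beyond WT of 0.29 (SE 0.254, adjusted p = 0.958). At 60 min GR-REV had 5.87, 10.3 and 7.20 FPKM, against 7.42 to 15.9 in WT, with a change of -0.41 (SE 0.229, adjusted p = 0.511). The GR-REV means were therefore 10.6 ± 1.45, 12.9 ± 1.94, 7.80 ± 2.28 and 5.11 ± 1.09 FPKM at 0, 30, 60 and 120 min (SD, n = 3, 2, 3 and 3), and the last was the lowest of the 20 line-and-time groups. The next were GR-AS2 at 0 min (6.45 ± 1.28) and GR-REV at 60 min (7.80 ± 2.28), and single libraries of neighbours in this order overlapped.

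The other 3 members did not pass the test at 120 min in GR-REV. FIL had 8.60, 11.9 and 9.86 FPKM in GR-REV, against 14.7, 16.9 and 25.9 FPKM as lowest, median and highest in WT. These groups did not overlap, and the change beyond WT was -0.47 and not called (SE 0.243, adjusted p = 0.622, limma). How many of all tested genes separate in this way was not counted. YAB2 had 4.08, 7.22 and 5.35 FPKM in GR-REV, against 7.04, 8.09 and 12.1 in WT, overlapping, with a change of -0.36 (SE 0.209, adjusted p = 0.705). YAB5 had 12.9, 12.03 and 9.43 FPKM in GR-REV, against 10.5, 12.9 and 15.2 in WT, also overlapping, with a change of -0.15 (SE 0.262, adjusted p = 0.961). All 4 changes were below 0, with a median of -0.41 against 0.01 over all tested genes, and 1 of 4 was called where 0.799% of tested genes were. The summed level of the 4 genes ran from 28.5 to 36.6 FPKM in GR-REV at 120 min, against 43.7 to 69.5 in WT, without overlap. The ratio of YAB3 to FIL averaged 0.515 ± 0.159 in GR-REV, against 0.777 ± 0.131 in WT, and its ranges of 0.395 to 0.696 and 0.626 to 1.01 overlapped.

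The YAB3 call at 120 min held within code series Ot79 (-1.32, adjusted p = 0.00571), without the 5 libraries furthest out (-1.10, adjusted p = 0.0366) and in 17 of 18 fits without 1 library. It was lost without GR-REV 120 min replicate 3, the library with the lowest value (-0.96, adjusted p = 0.0697). No organ marker was called beyond WT in GR-REV at 120 min. The leaf and cotyledon markers summed to 27476 to 54944 FPKM in GR-REV, against 27008 to 65667 in WT, the root markers to 1428 to 6374 (PYK10 alone 1419 to 6361) against 720.7 to 1894 (PYK10 706.8 to 1888), and the apex markers to 4.08 to 5.69 against 4.13 to 7.97. RBCS1A was listed at 0 in every GR-REV library at 120 min and ran from 0 to 34086 FPKM in WT, so the leaf sums are not alike. The part of the organ markers in the YAB3 change was not tested.

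**Figure D3:**
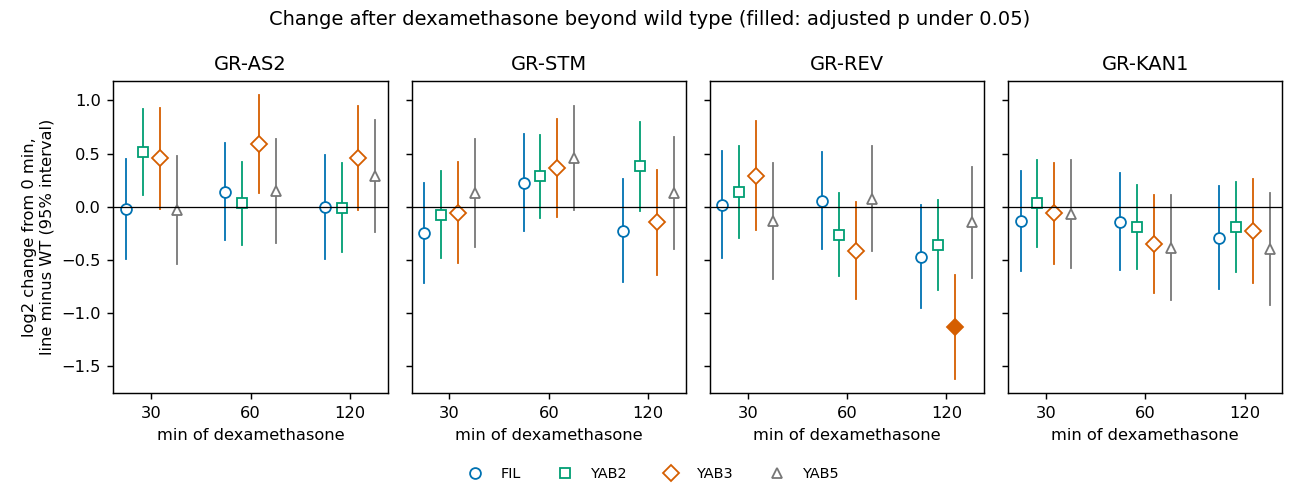
Change from 0 min in each GR line minus that in WT (vertical axis, log2, with 95% interval) at 30, 60 and 120 min (horizontal axis), with 1 marker per gene and filled markers at an adjusted p under 0.05. YAB3 in GR-REV at 120 min lies at -1.13 and is the only filled marker of 48.

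REV and KAN1 stand on opposite sides of the leaf, and their lines were compared directly. At 120 min YAB3 had 5.99, 5.44 and 3.89 FPKM in GR-REV, against 12.8, 12.6 and 12.2 FPKM in GR-KAN1. At 0 min it had 9.02, 11.9 and 10.9 FPKM in GR-REV, against 14.4, 13.5 and 12.4 in GR-KAN1. Neither time overlapped between the lines. The change in GR-REV minus that in GR-KAN1 was -0.90 (SE 0.265, adjusted p = 0.0477, limma), just inside the threshold, and 2.67% of all tested genes were called. The call was lost under 6 of 11 other settings and in 10 of 12 fits without 1 library, with differences of -1.02 to -0.74. At 30 and 60 min 0 of 4 members were called, where 0.216% and 2.05% of genes were. FIL and YAB2 differed by -0.18 (SE 0.263) and -0.17 (SE 0.226) at 120 min and were not called, while YAB5 differed by 0.25 (SE 0.284).

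In GR-KAN1, whose factor shares the lower side with the YABBY genes, none of the 4 passed the test beyond WT. FIL averaged 17.6 ± 1.3, 15.6 ± 1.73, 14.2 ± 3.00 and 13.9 ± 3.13 FPKM at 0, 30, 60 and 120 min (SD, n = 3 each). The last 3 groups each held a library of about the 0 min level, at 17.5, 17.6 and 17.6 FPKM. YAB3 averaged 13.4 ± 1.03, 12.6 ± 1.51, 10.2 ± 1.09 and 12.5 ± 0.334 FPKM. Changes beyond WT at 60 and 120 min were below 0 for all 4 genes, from -0.40 to -0.14, and missed the threshold with adjusted p-values of at least 0.649. Of tested genes 0.067%, 1.05% and 0.83% were called at 30, 60 and 120 min.

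In GR-STM no member was called at any time, where 0.144%, 0.876% and 0.819% of tested genes were called at 30, 60 and 120 min. YAB2 had 9.83, 9.08 and 9.10 FPKM at 60 min in GR-STM, against 6.34, 7.47 and 10.2 FPKM as lowest, median and highest in WT, and the groups overlapped. At 120 min it had 10.7, 9.08 and 8.72 FPKM, against 7.04, 8.09 and 12.1 in WT, with a change beyond WT of 0.38 (SE 0.209, adjusted p = 0.993). At 60 min the changes of the 4 genes ran from 0.23 to 0.46 with a median of 0.33, against -0.00325 over all tested genes, and the lowest adjusted p was 0.54, for YAB5.

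In GR-AS2 no member was called beyond WT at any time. YAB3 had 9.83, 7.12 and 9.61 FPKM at 30 min, 10.1, 8.77 and 9.97 FPKM at 60 min and 10.8, 10.5 and 8.43 FPKM at 120 min. The 3 libraries at 120 min lay below the WT range of 11.4 to 16.2 FPKM. Changes beyond WT were 0.46 (SE 0.236), 0.59 (SE 0.229) and 0.46 (SE 0.245), with adjusted p-values of 0.489, 0.457 and 0.749. Within code series Ot79 the change at 60 min was 0.31 (adjusted p = 0.869). Only 0%, 0.0103% and 0% of tested genes were called in this line at 30, 60 and 120 min, where 2049, 1713 and 1308 genes had an unadjusted p under 0.05. Among the members YAB2 at 30 min (0.52, adjusted p = 0.396) and YAB3 at 60 min had an unadjusted p under 0.05. In GR-REV 0.0412% and 1.18% of tested genes were called at 30 and 60 min.

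YAB5 was called in 0 of the 26 comparisons. Its line means were 11.9 ± 3.13 FPKM in GR-AS2, 11.2 ± 1.99 in GR-STM, 11.9 ± 1.71 in GR-REV and 11.7 ± 2.11 in GR-KAN1, against 11.8 ± 1.99 in WT. Its highest value in any library, 19.2 FPKM, was in GR-AS2 60 min replicate 3, which is 1 of the 5 libraries furthest out on the residual axis, beside 8.40 and 10.5 FPKM in the other GR-AS2 libraries of that time. Its log2 changes ran from -0.40 to 0.46, with a lowest adjusted p of 0.54. The 95% interval over the times was -0.25 to 0.15 in GR-AS2 and -0.24 to 0.18 in GR-REV. YAB3 was called in 5 of the 26 comparisons, FIL in 2 and YAB2 in 2, each time with a negative difference. Whether the response of YAB5 differs from that of YAB3 was not tested. The residual SD on the log2 scale was 0.248 for YAB5, 0.23 for YAB3, 0.228 for FIL and 0.195 for YAB2, against a median of 0.263 over tested genes.

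Among libraries of a group, 4 of 6 pairs of members varied together over all libraries, but no pair passed within code series Ot79 alone. Over the 71 libraries, deviations from the group means of FIL and YAB2 had a Pearson r of 0.518 (adjusted p = 7.80e-04 over 6 pairs, permutation test) and a Spearman rho of 0.452 (adjusted p = 0.00516). YAB2 and YAB5 had r = 0.452 (rho 0.415, adjusted permutation p = 0.00294 for r and 0.00723 for rho). FIL and YAB5 had r = 0.438 (rho 0.347, adjusted permutation p = 0.00567 and 0.0176), and YAB3 and YAB5 r = 0.406 (rho 0.336, adjusted permutation p = 0.0046 and 0.0176). FIL and YAB3 had r = 0.253 (rho 0.215) and YAB2 and YAB3 r = 0.263 (rho 0.193), and neither pair passed (adjusted permutation p = 0.0696 for r in both, and 0.145 and 0.17 for rho). Without the 2 libraries farthest from the median of the first gene, r was 0.43 for FIL and YAB2, 0.442 for YAB2 and YAB5, 0.358 for FIL and YAB5, 0.385 for YAB3 and YAB5, 0.15 for FIL and YAB3 and 0.222 for YAB2 and YAB3. Within code series Ot79 (n = 59) r was 0.378, 0.332, 0.328, 0.317, 0.119 and 0.0951 in the same order of pairs, and none passed (adjusted permutation p = 0.0742, 0.0774, 0.153, 0.0742, 0.512 and 0.58). Values of 1 library share its normalization and organ make-up, whose part in these relations was not tested.

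Across the 20 line-and-time groups FIL and YAB3 followed each other most closely among the members, as a description. The Pearson r of their mean log2 levels was 0.793, which placed YAB3 at rank 7 among all tested genes by likeness to FIL, and FIL at rank 20 by likeness to YAB3. YAB2 and YAB3 had r = 0.665, FIL and YAB2 r = 0.597, and YAB5 had 0.105 to 0.257 with the others. The gene most like YAB3 was VTE5, a phytol kinase (r = 0.902 over 20 groups), followed by GATL6 (0.85) and AT4G00780 (0.843). VTE5 (0.854), AT1G11820 (0.827) and UMAMIT46 (0.824) were most like FIL. LOL1 (0.857), ADF9 (0.85) and AT5G22920 (0.847) were most like YAB2, and emb1796 (0.776), AT1G18850 (0.747) and AT1G68185 (0.715) most like YAB5. Over the 71 libraries VTE5 remained first for YAB3 (0.793) and LOL1 first for YAB2 (0.699), while emb1796 was at rank 690 for YAB5 (0.326). For FIL, VTE5, AT1G11820 and UMAMIT46 were then at ranks 55, 47 and 53 (0.597, 0.602 and 0.599).

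Other genes of the leaf polarity network were described from lists of known members, with the gene a line is named for left out of that line. Over the times 17.6% of all tested genes were called in GR-AS2, 22.7% in GR-REV, 11.6% in GR-KAN1 and 4.08% in GR-STM, and the count of each list is to be read against these shares. Of the lower-side genes, KAN2 and KAN3, relatives of KAN1, were lower over the times in GR-AS2 (-0.23 and -0.30), GR-REV (-0.51 and -0.55) and GR-KAN1 (-0.31 and -0.61), so that 2 of 6, 3 of 6 and 2 of 5 tested members were lower and 0 higher. The third in GR-REV was ARF4, an auxin response factor of the lower side (-0.22). The list medians were -0.17 in GR-AS2, -0.28 in GR-REV and -0.15 in GR-KAN1, against 0.02, -0.00478 and 0.01 over all tested genes. KAN2 was also lower beyond WT in GR-REV at 60 min (-0.75, adjusted p = 0.0425) and 120 min (-0.82, adjusted p = 0.0452), the time at which YAB3 fell. KAN2 averaged 1.56 ± 0.242 FPKM in GR-REV at 120 min (n = 3), against 3.05 ± 0.379 in WT (n = 6). KAN3 fell beyond WT in GR-KAN1 at 60 min (-1.06, adjusted p = 0.0221). In GR-STM 2 of 6 lower-side genes were higher over the times, KAN1 (0.71) and ARF4 (0.40), with a list median of 0.15 against 0.00335 over all tested genes.

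Of the upper-side genes, the MYB gene AS1, whose protein works with AS2, was lower in GR-AS2 over the times (-0.44, 1 of 6 tested) and at 0 min (-0.84, adjusted p = 0.0044), the time at which YAB3 was called there. At 0 min AS1 averaged 7.72 ± 2.04 FPKM in GR-AS2, against 13.4 ± 2.06 in WT. In GR-STM AS1 (0.72) and REV (0.58) were higher over the times, 2 of 7, and AS1 rose beyond WT at 60 min (1.78, adjusted p = 1.32e-05) and 120 min (1.47, adjusted p = 6.01e-04). AS2 was lower in GR-KAN1 over the times (-0.83, 1 of 7) and fell beyond WT at 60 min (-0.95, adjusted p = 0.0315). In GR-REV 0 of 6 upper-side genes were called. The list medians were -0.18 in GR-AS2, 0.16 in GR-STM, -0.04 in GR-REV and -0.07 in GR-KAN1.

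Of the corepressor partners of YABBY proteins, LUH, a relative of LEUNIG, was higher over the times in GR-AS2 (0.23) and GR-REV (0.30), 1 of 5 in each, a share near the 17.6% and 22.7% of all tested genes called in those lines. The adaptor genes SLK1 (0.29) and SLK2 (0.33) were higher in GR-KAN1, 2 of 5, and 0 of 5 were called in GR-STM. Of the KNOX genes, which YABBY proteins are known to restrain, BP (-0.33) and KNAT6 (-0.26) were lower in GR-REV, 2 of 4, and KNAT2 higher in GR-STM (0.51), 1 of 3. In GR-AS2 and GR-KAN1 0 of 4 KNOX genes were called.

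Among CIN-type TCP factors, which limit blade cell division, TCP4 (-0.28), TCP10 (-0.29) and TCP24 (-0.23) were lower in GR-AS2, 3 of 5, and TCP10 in GR-REV (-0.46) and GR-STM (-0.42), 1 of 5 in each, against 22.7% and 4.08% of all tested genes. TCP2 was higher in GR-KAN1 (0.44), 1 of 5, where 11.6% of all tested genes were called. Of 3 tested genes of lamina and margin growth, KLU, a cytochrome P450 that promotes organ growth, was lower in GR-AS2 (-0.47) and GR-REV (-0.41). ANT, an AP2-type growth factor, was lower in GR-AS2 (-0.37), and WOX1, a homeobox gene of the blade margin, in GR-REV (-0.55) and GR-KAN1 (-0.79). The medians of that list were -0.37 in GR-AS2, -0.42 in GR-REV, -0.22 in GR-KAN1 and -0.09 in GR-STM, where 0 of 3 were called over the times. ANT rose beyond WT in GR-STM at 60 min (0.91, adjusted p = 0.0445). CRC and INO, the YABBY genes of carpel and ovule, were not found by locus identifier in the expression table and so were not analysed.

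**Figure D4:**
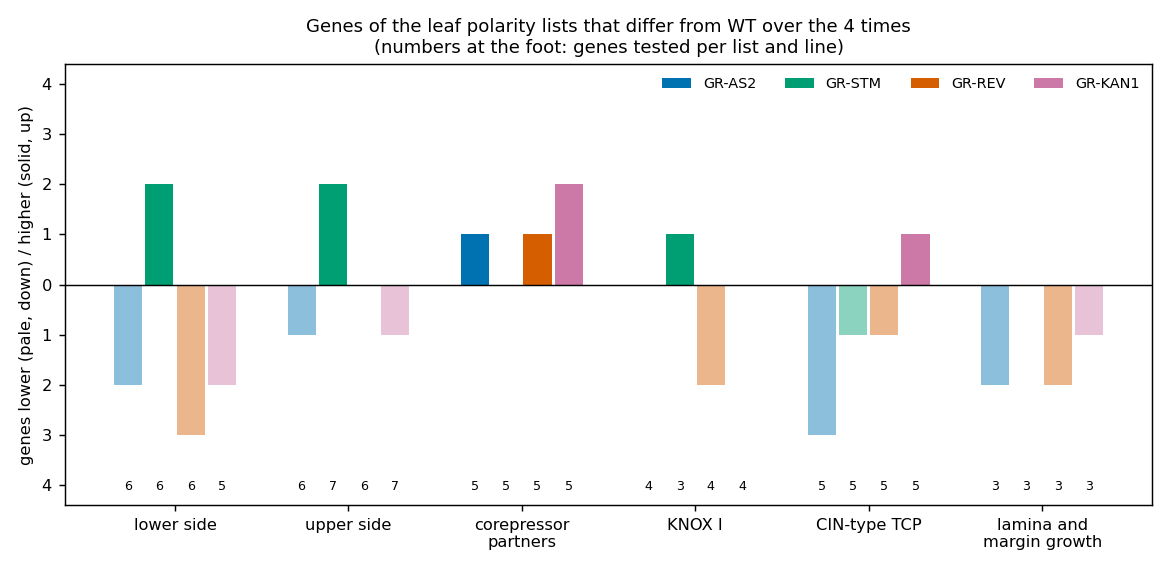
Number of genes per list (horizontal axis) that were higher (solid, upward) or lower (pale, downward) than WT over the 4 times (vertical axis, genes), 1 bar per GR line, with the number tested at the foot. In GR-REV 3 of 6 lower-side genes were lower, and in GR-AS2 3 of 5 CIN-type TCP genes were lower.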

How the data were processed

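The authors deposited FPKM values per gene with geometric normalization between libraries, per the series' design text. TopHat2 2.0.10, Cufflinks and the TAIR10 build are named in the submitters' processing notes, but no Cufflinks version or strand setting is. The table held 22346 entries, of which 14 placeholders were left out. Depth is unknown. Among genes under 1 FPKM in both libraries of a pair within a code series, 1.79% to 5.53% stood at the most common ratio (medians per series). No size for 1 read was derived from the values.

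Values were tested as log2(FPKM + 0.5) with limma 3.58.1 in R 4.3.3, in 1 fit over 71 libraries with 20 group means and the library code series (49 residual degrees of freedom, trended variance). Genes with a highest group mean of at least 1 FPKM were kept, and p-values were adjusted by Benjamini-Hochberg within each of 26 comparisons. Permutation tests used 100000 draws.

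Groups came from the labels. No label ties replicate numbers across groups. The named genes are all 4 members, the list members that passed the test, and the 3 genes most like each member. Members and lists were chosen with earlier results of these data known. Motifs and promoters were read from RefSeq's TAIR10.1 sequence. Other pseudocounts, filters, normalizations, fits and sets of libraries were tried.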

Additional observations from a re-analysis of the deposited data

Results flagged for a closer look

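FIL at 25.9 FPKM in WT 120 min replicate 4 stood far above the other 5 libraries of its group, which ran from 14.7 to 17.9 FPKM. YAB5 at 6.83 FPKM in WT 60 min replicate 4 stood far below the others, which ran from 11.1 to 13.4 FPKM. These were 2 of 16 group checks, and chance flags about 1 in 20. Both libraries belong to a later library code series than the GR lines. YAB2 (12.1 FPKM), YAB3 (16.2 FPKM) and YAB5 (15.2 FPKM) were also at their WT maximum in the 120 min library. In the 60 min library FIL (10.3 FPKM) and YAB3 (7.42 FPKM) were also at their WT minimum. YAB2 (6.34 FPKM) was there at the lowest value of its group.

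The change of YAB3 at 120 min in GR-REV differed from that in GR-KAN1 by -0.903 on the log2 scale, by a test of the difference itself (limma, adjusted p = 0.0477). Its range over 11 other settings was -0.957 to -0.823, with adjusted p-values of 0.0203 to 0.201.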

How the results depend on the processing

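Of the 751 recounts of called members over 26 comparisons, 27 moved, and no change of a called member reversed. A step from 3 called members to 2 was not counted among these moves, so more counts changed than that number. For GR-AS2 at 0 min, 2 members were called with genes of at least 5 FPKM, without the 5 least typical libraries and with library quality weights (chosen after seeing the data), and 0 when only the groups compared were fitted. Leaving out 1 library gave 1 to 2. Quality weights called 1 member in GR-AS2 at 60 min beyond WT (YAB3). For GR-REV minus GR-KAN1 at 120 min, 0 members were called at a pseudocount of 1 FPKM, with no filter, with no code series covariate, with quantile normalization, without the 5 least typical libraries and in the fit of only the groups compared, and 0 to 1 without 1 library (1 in 2 of 12). For GR-REV beyond WT at 120 min, 0 to 1 was called without 1 library. For GR-REV over the times, 1 to 3 were called without 1 library, with 1 left without WT 60 min replicate 2, GR-REV 30 min replicate 1 or GR-REV 120 min replicate 1. FIL in GR-REV over the times was not called without the 5 least typical libraries (adjusted p = 0.054), nor YAB2 with only the compared groups fitted (adjusted p = 0.0507). FIL in GR-AS2 over the times was called in 33 of 36 fits without 1 library, and lost without GR-AS2 0 min replicate 3, 60 min replicate 2 or 120 min replicate 3 (adjusted p up to 0.0697). YAB3 stayed called in all 11 other settings and all such fits over the times in GR-AS2 and GR-REV. Of these settings, leaving out the WT of later code series could not move the estimates (-0.5453 and -0.5499), which rest on Ot79. A replicate block likewise left GR-AS2 at -0.5453. The causes of the moves and lost calls were not tested. With a replicate block YAB3 was at -1.17 beyond WT in GR-REV at 120 min (adjusted p = 0.00467) and no member's call changed. Deviations of libraries numbered 1 to 3 had mean correlations of 0.00105 to 0.0221 within a number. Of 71 libraries, 21 correlated best with their own number. Numbers 1 to 3, which the lines share, thus showed no common pairing on average over all lines together. Pairing within a single line was not tested. Numbers 4 to 6, held by WT alone, had mean correlations of 0.192 to 0.409. Code series was not removed from these deviations, and numbers 4 to 6 are the later series, so pairing among them cannot be read. Counts over all genes moved more: in GR-AS2 from 2000 to 114 (only the groups compared) and 6154 (quality weights) at 0 min (25 to 3279 without 1 library, with 25 left without GR-AS2 replicate 3), and from 3418 to 8021 over the times with no code series covariate. In GR-REV they moved from 4400 to 2762 (at least 5 FPKM) and 8483 (no covariate) over the times, and from 155 to 68 (WT of later code series left out) and 271 (quality weights) beyond WT at 120 min. Minus GR-KAN1 they moved from 519 to 188 (only the groups compared) and 894 (quality weights). Depth sets no known limit here, and GR-REV at 30 min rests on 2 libraries.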
